A study of Mus musculus with 8 samples.

Results

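Neurofilaments and microtubules are the long polymers of the neuronal cytoskeleton. The transcripts of 10 subunit genes were followed with age in the mouse brain: the neurofilament subunits Nefl, Nefm, Nefh and Ina, the alpha-tubulins Tuba1a and Tuba1b, and the beta-tubulins Tubb2a, Tubb3, Tubb4a and Tubb5. The genes were chosen by symbol as the cytoskeletal subunits of interest, and each was matched through its Ensembl identifier to the mouse annotation, so that they are 10 of the 22430 genes listed in the count table. All 10 passed the filter on low counts and belonged to the 16730 genes tested.

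RNA came from male C57Bl/6JRj mice that received no treatment according to the labels, in 2 groups of 4: young adults aged 6 months (6m) and old animals aged 24 months (24m). The labels name the tissue both as whole brain and as brain hemisphere. Polyadenylated RNA of each animal was made into a strand-specific library and read on an Illumina instrument. In a bulk sample of this kind, fewer cells of a type and less RNA per cell cannot be told apart.

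A neurofilament is a heteropolymer in which the light chain (Nefl) co-assembles with the medium (Nefm) and heavy (Nefh) chains and with alpha-internexin (Ina). These filaments fill the axon and set its calibre, and their subunits are expressed in neurons. A microtubule is built from dimers of alpha- and beta-tubulin, each of which comes from a family of closely similar genes with their own tissue profiles. Cells hold tubulin mRNA in balance with the pool of unassembled dimers: when free dimers are abundant, ribosomes that translate tubulin are recognised by the residues at the start of the new chain, and the mRNA is degraded.

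The part of the coding sequence that this autoregulation reads is shown for the 6 tubulins, from the GENCODE annotation of assembly GRCm39. Each run gives the first 30 bases of the coding sequence, 5′ to 3′, and the capitals mark the first 4 codons, which encode methionine, arginine and glutamate followed by cysteine in the alpha-tubulins and isoleucine in the beta-tubulins.
Tuba1a: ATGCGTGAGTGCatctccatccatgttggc
Tuba1b: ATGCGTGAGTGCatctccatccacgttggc
Tubb2a: ATGCGCGAGATCgtgcacatccaggcgggc
Tubb3: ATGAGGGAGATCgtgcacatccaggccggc
Tubb4a: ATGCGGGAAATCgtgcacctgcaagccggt
Tubb5: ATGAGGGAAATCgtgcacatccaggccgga

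Among 21711 canonical coding sequences of the annotation, 17 began with codons for these residues, and they were 16 tubulin genes and Gm49450, a readthrough gene of the Tuba1a and Tuba1b locus. The neurofilament coding sequences begin otherwise, as the first 30 bases of Nefl and Ina show, with the first 4 codons again in capitals.
Nefl: ATGAGTTCGTTCggctacgatccgtacttt
Ina: ATGAGCTTCGGAtcggagcactatttgtgc

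The libraries held 63460940 to 103462414 counts. The deepest, 24m replicate 1, stood apart from the other aged libraries: its counts differed from theirs by a chi-square of 186 to 433 per degree of freedom, against at most 63.3 for the other pairs of one age. No pair of replicates agreed within sampling noise, so each was counted as a sample. Levels are given as counts per 1e+06 library counts (CPM) scaled by trimmed mean of M values (TMM) factors. Fold changes are log2 values of 24m over 6m with their standard error from edgeR's quasi-likelihood test, with p-values adjusted over all genes tested. A gene was called where the adjusted p was at most 0.05 and the log2 fold change at least 0.58 in size.

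Tubulin transcripts were lower in the aged brain in 5 of the 6 genes, by 30.3 to 36.5% in mean CPM, whereas no neurofilament subunit passed the test as lower. Tuba1b, Tubb3 and Tubb5 were called lower, Tuba1a and Tubb2a passed the adjusted p but fell short of the fold change, and Tubb4a passed neither. Of the neurofilament subunits, Ina was higher at 24m by adjusted p alone, and Nefl, Nefm and Nefh did not pass. Thus 3 of 10 members were called lower and 0 higher, against 18.3% and 25.3% of all genes tested. By adjusted p alone 5 members were lower and 1 was higher, beside 29.9% and 32.7% of all genes. The median log2 fold change of the members was -0.30, and that of all genes was 0.00.

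Levels per length placed the tubulins far above the neurofilaments. At 6m, in CPM per kilobase of the canonical transcript, Tuba1a came first at 2452 ± 133 (SD, n = 4), followed by Tuba1b at 1251 ± 66, Tubb2a at 759.7 ± 29.3, Tubb4a at 660.3 ± 52.0, Tubb5 at 521.6 ± 30.2 and Tubb3 at 363.6 ± 26.6. Nefm (105.4 ± 5.21) and Nefl (104.9 ± 4.13) were next, with overlapping libraries, and Nefh (47.6 ± 4.68) and Ina (31.7 ± 1.59) were lowest. All other neighbours in this order were separated in every 6m library. At 24m Tubb4a had passed Tubb2a in mean CPM per kilobase, at 624.4 ± 80.9 against 523.7 ± 47.1 with overlapping libraries, and Ina had come up to Nefh, at 44.8 ± 7.88 against 45.7 ± 8.18. The spread was wider in the aged group for every member, with a coefficient of variation of 9.0 to 26.4% at 24m and of 3.86 to 9.83% at 6m.

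**Figure D1:**
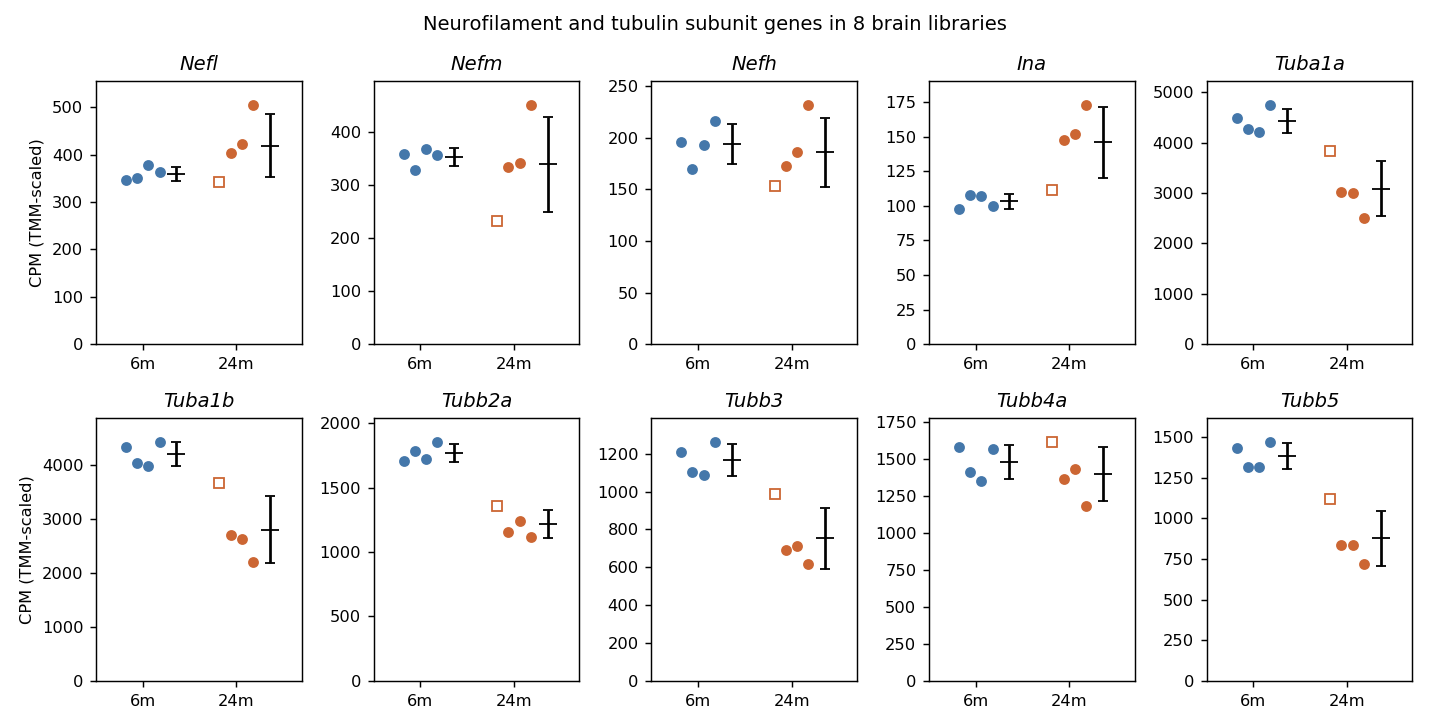
TMM-scaled CPM of each gene (vertical axes from 0) in the 4 libraries of 6m (blue) and of 24m (orange), with mean ± SD in black; the open square is 24m replicate 1. Aged libraries lie below all young ones for Tuba1a, Tuba1b, Tubb2a, Tubb3 and Tubb5 and above them for Ina.

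Nefl, the light chain that nucleates the filament, lies at chr14:68321268-68326544 on the plus strand (GRCm39) in 4 exons. It measured 345.5, 351.5, 377.7 and 362.5 CPM in 6m replicates 1 to 4 and 343.3, 403.9, 423.2 and 504.9 CPM in 24m replicates 1 to 4. Replicates 2 to 4 of 24m were above every young library, while 24m replicate 1 was below them all. The log2 fold change of Nefl was 0.22 ± 0.11 (adjusted p = 0.115). It was 0.33 ± 0.08 (adjusted p = 0.00507) without 24m replicate 1, 0.45 ± 0.14 (adjusted p = 0.0175) with libraries scaled by their totals alone, and 0.42 ± 0.14 (adjusted p = 0.0241) after a trend of counts over gene length was removed. Without 24m replicate 4 it fell to 0.12 ± 0.09 (adjusted p = 0.3), and with a trend over GC content removed to 0.13 ± 0.1 (adjusted p = 0.276).

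Nefm, the medium chain, is the neighbour of Nefl on the opposite strand, at chr14:68320039-68362305 in an annotation that includes long alternative exons across Nefl. Its values were 358.4, 327.3, 367.6 and 356.0 CPM at 6m and 231.8, 332.7, 340.3 and 450.3 CPM at 24m. The aged libraries lay on both sides of the young ones, with replicate 1 lowest and replicate 4 highest. The log2 fold change was -0.06 ± 0.17 (adjusted p = 0.784).

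Nefh, the heavy chain, lies at chr11:4888740-4898130 on the minus strand. It measured 195.9, 169.8, 192.9 and 216.4 CPM at 6m and 153.6, 172.2, 186.5 and 231.7 CPM at 24m, and the ages overlapped. The log2 fold change was -0.06 ± 0.13 (adjusted p = 0.709). The signs of Nefm and Nefh depended on the processing: both were positive when libraries were scaled by their totals alone (0.18 and 0.17) or without 24m replicate 1 (0.11 and 0.04), and passed no adjusted p there.

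Ina, alpha-internexin, lies at chr19:47003069-47013770 on the plus strand in 3 exons. Its values were 97.9, 108.1, 107.4 and 99.8 CPM at 6m and 111.2, 147.6, 152.1 and 173.0 CPM at 24m. All aged libraries were above all young ones, with 24m replicate 1 nearest to them. Ina was 41.3% higher in mean CPM at 24m, and its log2 fold change was 0.50 ± 0.12 (adjusted p = 0.00627). Among all genes, 28.4% had every aged library above every young one. Ina passed the fold change as well when libraries were scaled by totals alone (0.73), when a trend over gene length (0.72) or GC content (0.67) was removed and without 24m replicate 1 (0.63).

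Tuba1a and Tuba1b, the main alpha-tubulins of the brain, lie side by side on the minus strand of chromosome 15, at chr15:98847714-98851589 and chr15:98827738-98832493, each in 4 exons. Tuba1a measured 4486.7, 4279.9, 4216.0 and 4750.6 CPM at 6m and 3832.9, 3012.7, 3009.3 and 2501.8 CPM at 24m. Tuba1b measured 4339.3, 4043.1, 3983.2 and 4437.7 CPM at 6m and 3668.9, 2714.5, 2636.1 and 2198.1 CPM at 24m. In both, every aged library was below every young one, and 24m replicate 1 was the nearest to the young group. The log2 fold change was -0.52 ± 0.13 (adjusted p = 0.00688) for Tuba1a and -0.58 ± 0.15 (adjusted p = 0.00721) for Tuba1b, which was called.

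The values of this pair are uncertain where reads can come from either gene. Their coding sequences are 98.3% identical. Of the stretches of the length of 1 read, 54.3% in the Tuba1a transcript and 28.6% in the Tuba1b transcript also occur in another gene of the annotation.

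The readthrough gene Gm49450 overlaps exons of both on the same strand and had counts of its own in the table. It measured 1365.0, 1640.1, 1454.9 and 1673.8 CPM at 6m and 2329.8, 1899.4, 1913.5 and 1638.9 CPM at 24m. Its log2 fold change, 0.34 ± 0.12 (adjusted p = 0.0349), was opposite in sign to both. When the counts of Tuba1a, Tuba1b and Gm49450 were added to 1 feature before the fit, its log2 fold change was -0.38 ± 0.14 (adjusted p = 0.0379), which passed the adjusted p and fell short of the fold change.

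Tubb2a, a beta-tubulin enriched in neurons, lies at chr13:34257549-34261998 on the minus strand. It measured 1706.6, 1783.5, 1721.5 and 1856.4 CPM at 6m and 1360.5, 1153.3, 1244.6 and 1114.0 CPM at 24m, with no overlap between ages. Its log2 fold change of -0.54 ± 0.09 had the smallest adjusted p of the members (0.000923). In Tubb2a, 18.7% of stretches of read length also occur in its close copy Tubb2b or a Tubb2a pseudogene.

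Tubb3, the beta-tubulin used as a marker of neurons, lies at chr8:124138163-124150092 on the plus strand. Its values were 1210.3, 1103.0, 1085.8 and 1263.3 CPM at 6m and 989.0, 692.7, 710.3 and 618.2 CPM at 24m. All aged libraries were below all young ones, and the log2 fold change was -0.63 ± 0.14 (adjusted p = 0.00393).

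Tubb5, a widely expressed beta-tubulin, lies at chr17:36144809-36149198 on the minus strand. It measured 1430.2, 1315.6, 1315.7 and 1472.1 CPM at 6m and 1118.5, 837.1, 834.7 and 721.1 CPM at 24m. Of the members it had the lowest log2 fold change, -0.66 ± 0.13 (adjusted p = 0.00213), and again no library of one age reached the other.

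Tubb4a, a beta-tubulin of the brain that is abundant in oligodendrocytes, lies on the same chromosome at chr17:57387057-57394782. It measured 1582.4, 1411.8, 1346.6 and 1567.5 CPM at 6m and 1615.6, 1360.4, 1432.9 and 1178.2 CPM at 24m. The ages overlapped, with the highest and the lowest value both in aged libraries, and the log2 fold change was -0.08 ± 0.11 (adjusted p = 0.555). Of the 8 oligodendrocyte markers tested, 1 was called higher and 0 lower, beside 25.3% and 18.3% of all genes tested. The median over the 8 was -0.02, and they summed to 3456.1 to 4322.3 CPM at 6m and 3713.1 to 4326.0 CPM at 24m. Their part in the value of Tubb4a was not tested.

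The 5 tubulins without overlap compare with 26.8% of all genes that had every aged library below every young one. Summed over the 6 tubulins, the share of all counts was 1.35, 1.33, 1.30 and 1.36% at 6m and 1.26, 1.07, 1.07 and 0.943% at 24m. The 4 neurofilament subunits held 0.0914, 0.0916, 0.0993 and 0.0918% at 6m and 0.0841, 0.116, 0.12 and 0.154% at 24m. The share of tubulins was thus below the young range in each aged library, while that of neurofilaments was above it in replicates 2 to 4 of 24m and below it in replicate 1.

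Calls of the tubulins depended on single libraries and on the processing. Without 24m replicate 1 Tuba1a was called too (-0.62 ± 0.09, adjusted p = 0.000104), which made 4 members lower. Without 24m replicate 4, which had the lowest level of all 6 tubulins, none was called, with -0.57 for Tubb5, -0.55 for Tubb3 and -0.48 for Tuba1b. Tuba1b lies at the fold change needed for a call, and it was no longer called without 6m replicate 1 or 4 or 24m replicate 2, 3 or 4, nor without the filter on low counts (-0.57). With the trend over GC content removed 2 members were called lower, Tubb5 (-0.63) and Tubb2a (-0.58), while Tuba1b (-0.57) and Tubb3 (-0.53) fell short of the fold change. Scaling by totals alone raised the median of all genes to 0.21 and left the 5 lower tubulins between -0.31 and -0.45, none of them called. Removing a trend over gene length took away the difference of the shortest transcript, Tuba1a (0.00 ± 0.08, adjusted p = 0.99), reduced that of Tubb2a (-0.14 ± 0.08, adjusted p = 0.142) and turned Tubb4a higher (0.34 ± 0.08, adjusted p = 0.00415). Tuba1b, Tubb3 and Tubb5 still passed the adjusted p in that fit, at -0.42, -0.42 and -0.47, without reaching the fold change. With the lengths of canonical transcripts these 3 were at -0.4, -0.42 and -0.33 and passed the adjusted p as well.

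**Figure D2:**
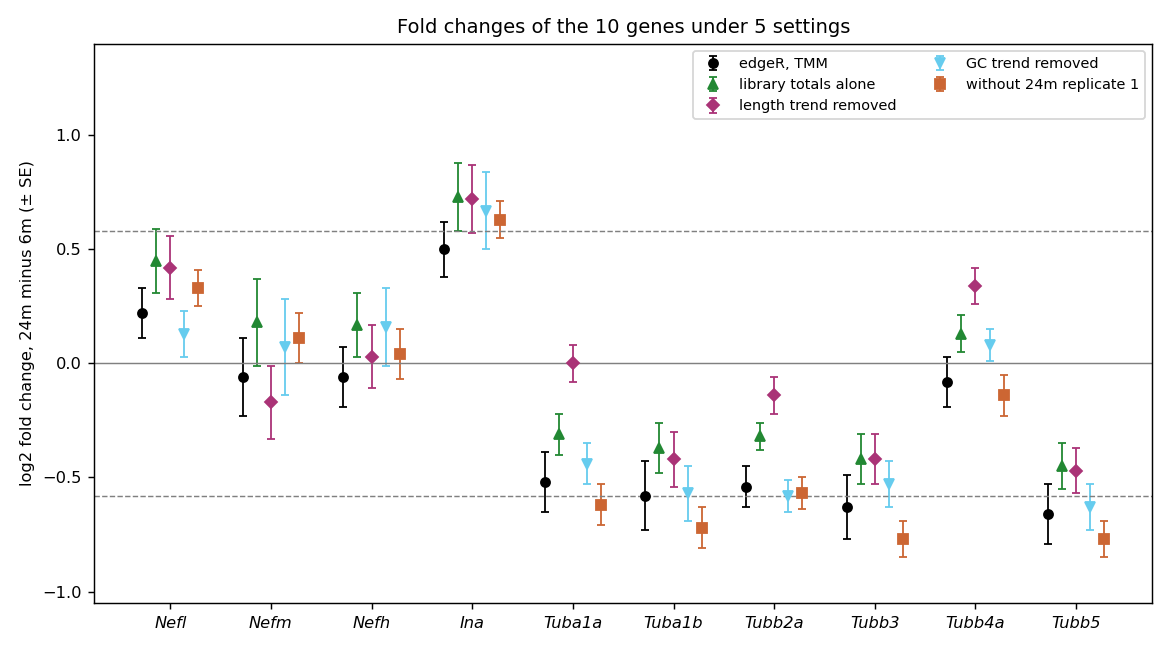
Log2 fold change of 24m over 6m (± SE) of the 10 genes in the fit with TMM factors and in 4 alternatives; dashed lines mark the fold change needed for a call. Tuba1b, Tubb2a, Tubb3 and Tubb5 lie below 0 in all 5, whereas Tuba1a comes to 0.00 and Tubb4a to 0.34 after removal of the length trend.

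The ratio of the counts of a pair of subunits within a library does not depend on how libraries are scaled to each other, but does depend on any trend of a library over GC content or length, in which the genes of a pair differ. Such ratios were compared between ages for 7 pairs by an exact two-sided permutation test, in which the 8 libraries can be divided into 4 and 4 in 70 ways and p cannot fall under 0.0286. For 4 of the 7 pairs the ages did not overlap, and each gave this p, or 0.05 after adjustment over the 7 ratios, at the threshold itself. With a library left out, the smallest p that can be reached is 0.0571.

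The ratios of neurofilament transcripts as counted differed between ages, but those of Nefm and Nefh overlapped between ages once a trend over GC content was removed. Nefm had 1.04, 0.931, 0.973 and 0.982 counts per count of Nefl at 6m and 0.675, 0.824, 0.804 and 0.892 at 24m, a difference of -0.30 in mean log2 ratio (exact permutation p = 0.0286, n = 4 per age). For Nefh per Nefl the ratios were 0.567, 0.483, 0.511 and 0.597 at 6m and 0.447, 0.426, 0.441 and 0.459 at 24m, a difference of -0.28 (exact permutation p = 0.0286). For Ina per Nefl they were 0.283, 0.307, 0.284 and 0.275 at 6m and 0.324, 0.366, 0.359 and 0.343 at 24m, a difference of 0.27 (exact permutation p = 0.0286). Relative to the light chain, the counts of the medium and heavy chains were lower and those of alpha-internexin higher in each aged library, 24m replicate 1 included. Without that replicate the differences were -0.22, -0.28 and 0.31.

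The exons of Nefl have a GC content of 49.0%, those of Nefm 54.1%, those of Ina 56.0% and those of Nefh 58.7%. After the trend of each library over GC content was taken off, the difference between ages was -0.11 for Nefm per Nefl (exact permutation p = 0.629) and 0.00 for Nefh per Nefl (exact permutation p = 1.0), with overlapping ages in both. The lower ratios of Nefm and Nefh were thus not seen in that setting, and whether GC content accounts for them was not tested. Ina per Nefl remained separated at 0.51 (exact permutation p = 0.0286, or 0.0667 adjusted over the 7 ratios). With the trend over exonic length taken off, the 3 differences were -0.60, -0.38 and 0.29, each without overlap. The value of Nefm per Nefl rests on the long exonic length of Nefm, and was -0.29 with the lengths of canonical transcripts.

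As a share of the summed CPM per kilobase of the 4 subunits, Ina made up 11 ± 0.765% at 6m and 14.3 ± 0.594% at 24m. Nefl went from 36.3 ± 0.912 to 39.2 ± 1.67% and Nefm from 36.4 ± 0.83 to 31.9 ± 2.36%, in both without overlap, while Nefh made up 16.4 ± 1.23 and 14.6 ± 0.739% with overlapping libraries. These shares were not corrected for GC content.

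Among the beta-tubulins, Tubb4a departed from the others. It had 1.11, 1.07, 1.02 and 1.06 counts per count of Tubb5 at 6m and 1.44, 1.63, 1.72 and 1.63 at 24m, a difference of 0.59 in mean log2 ratio (exact permutation p = 0.0286), the largest of the 7. Every aged library exceeded every young one, and the difference was 0.64 without 24m replicate 1. It was 0.72 with the GC trend and 0.81 with the length trend taken off, without overlap in either. The p adjusted over the 7 ratios in those settings was 0.0667 and 0.04 (exact permutation). Tubb3 kept close to Tubb5 in this measure, with 0.842 ± 0.0138 counts per count of Tubb5 at 6m and 0.855 ± 0.0233 at 24m (difference 0.02, exact permutation p = 0.40). Tubb2a per Tubb5 was 1.28 ± 0.0693 and 1.41 ± 0.145 (difference 0.13, exact permutation p = 0.171), and Tuba1b per Tuba1a was 0.948 ± 0.0139 and 0.903 ± 0.0377 (difference -0.07, exact permutation p = 0.114); a p that misses the threshold does not show that these ratios are equal. Of these 3, Tubb3 per Tubb5 was separated with the GC trend taken off (0.10, exact permutation p = 0.0286, or 0.0667 adjusted over the 7 ratios), and Tuba1b per Tuba1a with the length trend taken off (-0.43, exact permutation p = 0.0286, or 0.04 adjusted).

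**Figure D3:**
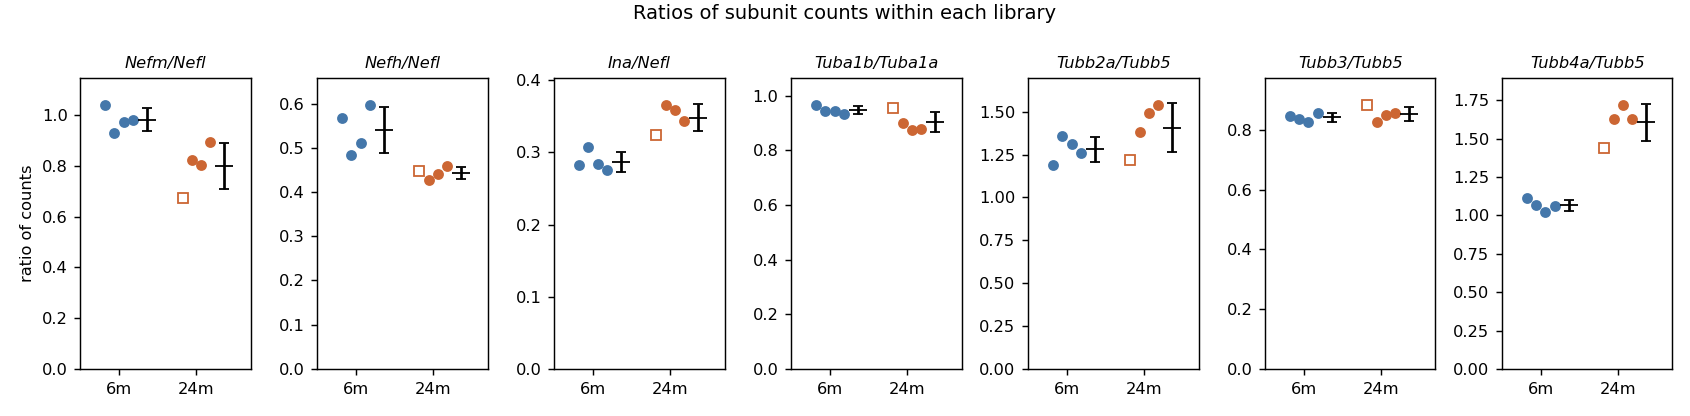
Counts of a subunit per count of a second subunit in the same library (vertical axes from 0) for 7 pairs at 6m (blue) and 24m (orange), with mean ± SD in black and 24m replicate 1 as an open square. The ages are separated for Nefm, Nefh and Ina per Nefl and for Tubb4a per Tubb5 in these counts, which carry no GC or length correction.

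The composition of the beta-tubulin transcripts followed these ratios. Tubb4a made up 28.6 ± 1.00% of the summed CPM per kilobase of the 4 beta-tubulins at 6m and 36.5 ± 0.977% at 24m, while Tubb5 went from 22.6 ± 0.317 to 19.2 ± 1.07% and Tubb3 from 15.8 ± 0.350 to 13.6 ± 1.03%, each without overlap. The share of Tubb2a was 33.0 ± 1.45% at 6m and 30.7 ± 1.63% at 24m, with overlap. Tubb2a was the first of the 4 in each young library, and Tubb4a was the first in each aged one.

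**Figure D4:**
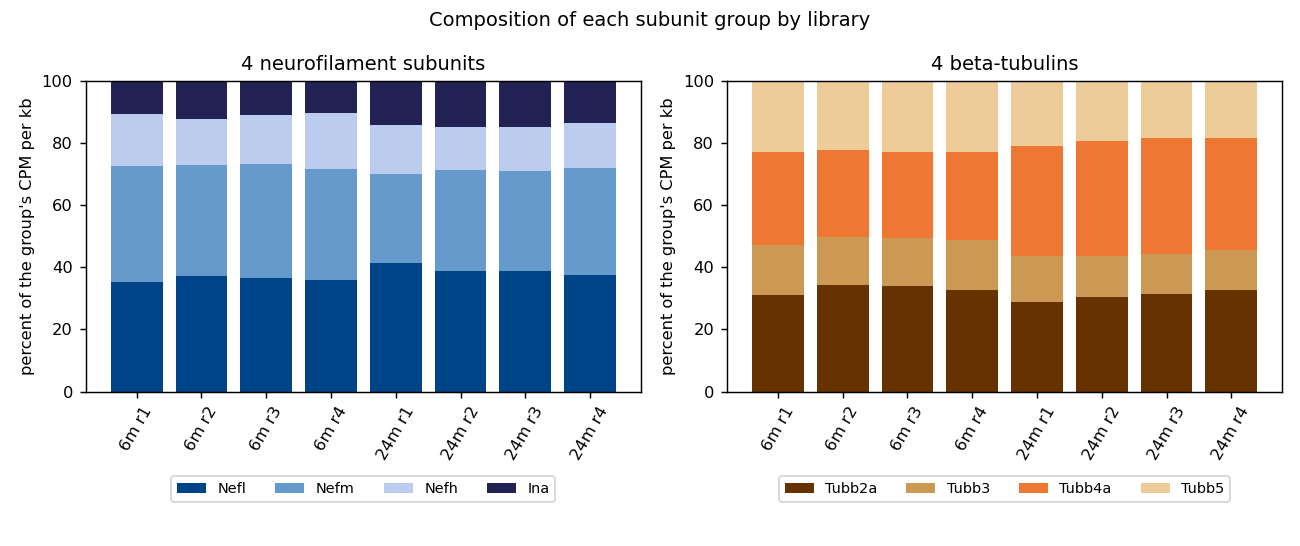
Share of each gene in the summed CPM per kilobase of the 4 neurofilament subunits (left) and the 4 beta-tubulins (right), in percent, for each library by age and replicate (r). The Tubb4a segment is at most 30% of the bar in the young libraries and 35.4 to 37.4% in the aged ones.

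Most of the other tubulin genes were lower too. Of 14 listed, 12 were tested, of which 4 were called lower and 1, which stayed under 1 CPM in every library, was called higher. This compares with 18.3% called lower and 25.3% called higher of all genes tested. The median over the 12 was -0.52. Those called lower were Tubb6, a beta-tubulin at 9.05 to 11.9 CPM in 6m and 6.41 to 6.80 CPM in 24m libraries (-0.69 ± 0.12, adjusted p = 0.000891), Tubd1, the delta-tubulin of centrioles (-0.65 ± 0.18, adjusted p = 0.0102), Tubg2, a gamma-tubulin (-0.64 ± 0.10, adjusted p = 0.000689), and Tuba1c, an alpha-tubulin close in sequence to Tuba1a and Tuba1b and uncertain for that reason (-0.59 ± 0.14, adjusted p = 0.00575). Another 4 passed the adjusted p in the same direction. Scaled by totals alone, the list had a median of -0.31 with 0 called lower, and with the length trend removed -0.23 with 2 called lower.

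Of the 16 tubulins that begin with the autoregulation codons, 14 were tested, all of them already counted above as members or other tubulins. By adjusted p 10 were lower, 1 was higher and 3 did not pass, beside 29.9% lower and 32.7% higher of all genes tested. With the fold change, 5 were called lower and 1 higher, beside 18.3% and 25.3% of all genes. Autoregulation needs Ttc5, which binds the start of the nascent tubulin chain, Scaper, and the deadenylase subunits Cnot11 and Cnot1. In the fit with TMM factors none of these 4 was called. By adjusted p alone 2 were lower and 1 was higher, and their median log2 fold change was -0.15. Both depended on the processing: with totals alone 1 was called higher and the median was 0.07, and with the length trend removed 1 was called lower and the median was -0.43.

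Factors that fold and assemble tubulin were mostly lower. Of 21 tested genes of the prefoldin complex, the CCT chaperonin and the tubulin-specific chaperones, 9 were called lower and 1 higher, and 17 were lower by adjusted p. Of all genes tested, 18.3% were called lower and 25.3% higher, and 29.9% were lower by adjusted p. The median over the 21 was -0.47. Tbca, which captures beta-tubulin after folding, was 144.4, 114.9, 117.2 and 123.5 CPM at 6m and 64.8, 48.2, 48.8 and 43.7 CPM at 24m (-1.28 ± 0.13, adjusted p = 7.5e-05). The prefoldin subunits Pfdn5 (-1.12 ± 0.21, adjusted p = 0.00144) and Pfdn2 (-1.0 ± 0.12, adjusted p = 0.000129) were also lower. Tbcel, a relative of the cofactor Tbce that destabilises tubulin, was the exception, with 4.13 to 5.59 CPM at 6m and 9.76 to 16.9 CPM at 24m (1.37 ± 0.18, adjusted p = 0.00021). With the length trend removed this list had a median of -0.52, with 8 called lower and 1 higher, and with totals alone a median of -0.25, with 7 lower and 1 higher.

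Stathmins, which sequester tubulin dimers, had a lower TMM-scaled level in every aged library than in any young one for all 4 genes. Among all genes tested, 26.8% were separated in this way. Stmn3 (-0.95 ± 0.17, adjusted p = 0.00124) and Stmn1 (-0.86 ± 0.11, adjusted p = 0.000231) were called, beside 18.3% of all genes called lower. Stmn2 did not pass the adjusted p (-0.16 ± 0.07, adjusted p = 0.0604). The median over the 4 was -0.68. With totals alone it was -0.47, with 2 called lower, and with the length trend removed -0.63, with 3 called lower. The summed level of the 4 was 3388.3 to 4037.2 CPM at 6m and 1745.6 to 2580.6 CPM at 24m.

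Enzymes that modify tubulin went both ways. Of 21 tested, 6 were called higher and 1 lower, beside 25.3% and 18.3% of all genes tested. The median over the 21 was 0.25, or 0.48 with totals alone. Ttll7, a polyglutamylase of beta-tubulin, measured 15.4, 13.3, 13.5 and 11.9 CPM at 6m and 15.5, 36.0, 33.9 and 48.0 CPM at 24m (1.30 ± 0.28, adjusted p = 0.00286), with 24m replicate 1 close to the young libraries. The carboxypeptidases Vash2 (1.28 ± 0.27, adjusted p = 0.00248) and Vash1 (0.93 ± 0.09, adjusted p = 6.72e-05), which remove the terminal tyrosine of alpha-tubulin, were higher, and their binding partner Svbp was lower (-0.83 ± 0.19, adjusted p = 0.00379). The level of Vash2 was low, at 0.472 to 0.813 CPM in 6m and 1.04 to 2.24 CPM in 24m libraries. With the length trend removed the list had a median of -0.12, with 4 called higher and 4 lower, and without 24m replicate 1 it had 5 higher and 2 lower.

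Of 8 factors that nucleate microtubules, 1 was called higher and 1 lower, beside 25.3% and 18.3% of all genes tested. Mzt2, a small subunit of the gamma-tubulin ring complex, was lower (-0.81 ± 0.17, adjusted p = 0.00235). Nedd1, which anchors that complex, was higher (0.72 ± 0.19, adjusted p = 0.00782). Its level was low, at 0.514 to 0.721 CPM in 6m and 0.849 to 1.22 CPM in 24m libraries. The median over the 8 factors was 0.47. Without 24m replicate 1 the list had 5 called higher and 1 lower, with a median of 0.58, and with totals alone 5 and 1, with a median of 0.69. With the length trend removed 1 was called higher and 0 lower, with a median of 0.01.

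Of 8 other intermediate filament genes, 2 were called higher and 1 lower, beside 25.3% and 18.3% of all genes tested, and the median was 0.21. With totals alone the median was 0.43 and 3 were called higher and 1 lower, and with the length trend removed 2 were called higher and 2 lower. Synm, synemin (2.01 ± 0.34, adjusted p = 0.000818), and Gfap, the filament protein of astrocytes (1.45 ± 0.14, adjusted p = 6.49e-05), were higher. Prph, peripherin, a partner of neurofilaments in peripheral and motor neurons, measured 27.1, 20.7, 23.2 and 32.5 CPM at 6m and 15.7, 7.69, 6.52 and 7.47 CPM at 24m (-1.47 ± 0.28, adjusted p = 0.00141).

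**Figure D5:**
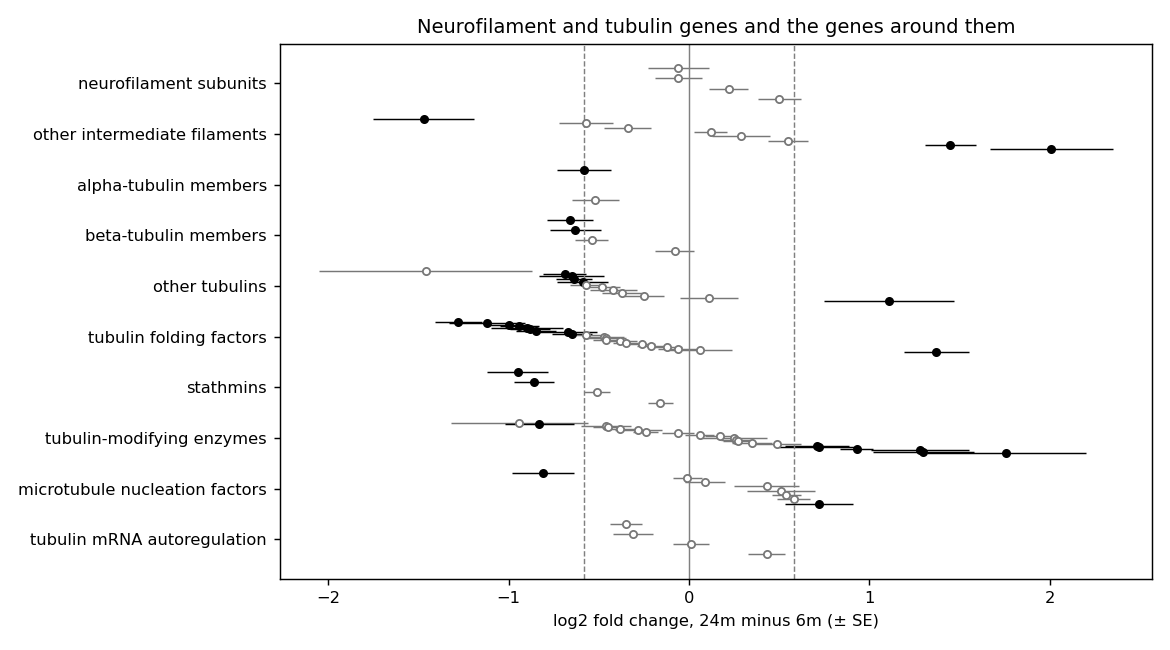
Log2 fold change of 24m over 6m (± SE) of each tested gene in 10 lists; filled points are called genes and dashed lines the fold change needed for a call. The alpha-tubulin and beta-tubulin members and most folding factors lie left of 0, and the 4 stathmins do as well.

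Markers of neurons went both ways. Of 8 tested, 1 was called higher (Syt1, a synaptic vesicle calcium sensor, 1.55 ± 0.24, adjusted p = 0.000482) and 1 lower (Nrgn, a postsynaptic calmodulin-binding protein, -0.83 ± 0.11, adjusted p = 0.000265). Among all genes tested, 25.3% were called higher and 18.3% lower. The median over the 8 was 0.16. With totals alone it was 0.37, with 3 called higher and 1 lower, and with the length trend removed 1 was called higher and 2 lower. They summed to 7820.8 to 8461.2 CPM at 6m and 6664.0 to 7668.0 CPM at 24m, lower in each aged library, but this direction depended on Nrgn and on the scaling. By library totals alone the 8 summed to 7165.6 to 7851.7 CPM at 6m and 7545.7 to 7761.5 CPM at 24m, with overlap. Without Nrgn the other 7, scaled by TMM factors, summed to 4671.1 to 5056.6 CPM at 6m and 5126.8 to 5534.0 CPM at 24m, higher in each aged library. Markers of immature neurons and progenitors, cells rich in Tuba1a and Tubb3, summed to 5.71 to 8.14 CPM at 6m and 5.03 to 9.45 CPM at 24m. Of the 6, 2 were called higher and 1 lower, namely Igfbpl1 (-1.03 ± 0.15, adjusted p = 0.000335), Sox11 (0.76 ± 0.24, adjusted p = 0.0186) and 1 gene under 1 CPM in every library.

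The calls in the marker lists that follow stand beside 25.3% of all genes called higher and 18.3% called lower. Among 8 markers of each other cell type, astrocytes had 5 called higher and 1 lower, with Aqp4 at 1.92 ± 0.22, Slc1a3 at 1.89 ± 0.21, Gja1 at 1.48 ± 0.25 and Gfap as above, while the 1 called lower was S100b at -1.29 ± 0.18. Microglia had 3 higher and 0 lower, with Cx3cr1 at 1.72 ± 0.17, Itgam at 1.44 ± 0.17 and P2ry12 at 0.75 ± 0.27. Endothelial cells had 2 higher, Flt1 at 1.24 ± 0.32 and Kdr at 1.12 ± 0.27, and 2 lower, Ly6c1 at -1.26 ± 0.17 and Cldn5 at -1.06 ± 0.16. Of 5 region markers each, those of cortex had 3 called higher, Tbr1 (1.29 ± 0.26) and Cux2 (0.98 ± 0.15) among them, those of cerebellum had 2, Cbln3 (1.69 ± 0.17) and Gabra6 (0.65 ± 0.16), and those of striatum had 2, Drd1 (1.82 ± 0.26) among them. None of these 3 lists had a gene called lower, while 1 gene of cortex and 1 of striatum were lower by adjusted p alone. Those of hindbrain had Slc6a5 (2.22 ± 0.31) higher and Hoxb3 (-1.36 ± 0.50) lower. Without 24m replicate 1, 1 gene each was called lower in the lists of cerebellum, cortex and oligodendrocytes, 2 in that of hindbrain, and 2 neuron markers each were called higher and lower. The defining markers of neurons, astrocytes and oligodendrocytes were present in all 8 libraries. How far these markers bear on the subunit genes was not tested.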

How the data were processed

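Poly(A) RNA of 8 mouse brains, 4 per age, had been sequenced. The authors trimmed reads with Trim Galore 0.4.11, aligned them to GRCm39 with HISAT2 2.1.0 (versions from the submitters' processing notes) and counted them over Ensembl genes with featureCounts. Use of strand and of multimapping reads is not given in the sources used here, so genes that overlap or have near-identical copies are uncertain. Of the members, only Tubb3 and Tubb4a have no exon overlap with a gene on the opposite strand. Nefl and Nefm overlap each other, and Tuba1a and Tuba1b overlap Gm41396. Nefh, Ina, Tubb2a and Tubb5 overlap Ap1b1, Nt5c2, Bphl and Flot1, in this order. The values deposited by the authors are counts as whole numbers, 1 column per library, neither normalized nor pooled. In their own analysis they removed low counts (up to 5), applied quantile normalization and used DESeq2.

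Here genes that exceeded 5 counts in 4 or more libraries were tested with edgeR 4.0.16 (R 4.3.3; quasi-likelihood, TMM factors, age as the only term, Benjamini-Hochberg adjustment), and called by the study's thresholds, adjusted p of at most 0.05 and log2 fold change of 0.58. A standard error is the log2 fold change divided by the root of F. The fit was tested on simulated data. Ratios were compared by exact permutation with scipy. Positions, lengths and sequences came from a GENCODE release for GRCm39 later than that of the authors, to which 22281 of the 22430 genes matched. Lengths for levels are those of the canonical transcript.

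The members and the gene lists were chosen with earlier results of these data known. All 10 members are described. Of every other list, at most 4 called genes are named, in order of size, and none under 1 CPM in every library. Some marker genes that the rule would name are not reported here. Ttc5, Scaper, Cnot11, Cnot1, Gm49450, S100b, Stmn2, Hoxb5 and Pcp2 were named outside this rule. As alternatives, RLE factors or library totals, DESeq2 1.42.0, limma-voom (limma 3.58.1), no filter or 1 CPM in 4 libraries, no fold-change threshold, leaving out single libraries, the replicate number as a block, and removal of trends over exonic length or GC content were tried. After seeing the data, the sum of Tuba1a, Tuba1b and Gm49450, canonical lengths for the members, the length fit without 24m replicate 1, ratios with the GC or length trend taken off, and the neuron marker sum by totals alone and without Nrgn were added. P-values measure the spread between the animals of each age.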

Additional observations from a re-analysis of the deposited data

How the results depend on the processing

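Depth limits none of these values, since each member had at least 6426 counts in every library. Members called higher numbered 1 (Ina) and members called lower 0 with libraries scaled by totals alone, with the length trend removed, and likewise with canonical lengths; with the GC trend removed Ina was again the 1 called higher and 2 were called lower, Tubb5 and Tubb2a, and without a fold-change threshold 1 was higher and 5 lower. Over all genes, 1746 were called lower with totals alone and 4999 without the threshold, against 3058. With totals alone Nefl was 0.45, Nefm 0.18, Nefh 0.17 and Tubb4a 0.13. With the length trend removed Nefl was 0.42, Nefh 0.03, Tuba1a 0.00, Tubb2a -0.14 and Tubb4a 0.34, and with canonical lengths 0.42, 0.03, 0.00, -0.13 and 0.34, with Nefm at 0.16 in place of -0.17, which followed from the shorter length. With the GC trend removed Nefl was 0.13, Nefm 0.07, Nefh 0.16 and Tubb4a 0.08. With the length trend removed and 24m replicate 1 left out, 1 member was called higher and 0 lower, and Nefl was 0.54, Nefh 0.14, Tuba1a -0.02, Tubb2a -0.12 and Tubb4a 0.34. For the ratios, removal of the GC trend gave -0.11 for Nefm per Nefl, 0.00 for Nefh per Nefl and 0.10 for Tubb3 per Tubb5, and removal of the length trend gave -0.43 for Tuba1b per Tuba1a, or -0.41 with canonical lengths, which turned Tubb3 per Tubb5 to -0.09. Where no value above shows it, the cause was not tested. With each library left out, members called higher were 0 to 1 and lower 0 to 4, and the range was 0.12 to 0.33 for Nefl, -0.22 to 0.11 for Nefm, -0.18 to 0.04 for Nefh, -0.36 to -0.22 for Nefm per Nefl, -0.33 to -0.23 for Nefh per Nefl, 0.25 to 0.31 for Ina per Nefl and 0.55 to 0.64 for Tubb4a per Tubb5, where no p under 0.0571 was possible. The replicate numbers did not pair the samples, since same-numbered libraries deviated together by correlations of 0.27, 0.14, 0.08 and -0.35. With the replicate block 0 members were called higher and 3 lower (4112 and 3130 of all genes), and flipping the 4 pairs gave -0.30, -0.28, 0.27 and 0.59 for the separated ratios, with the smallest exact p it allows, 0.125. Scaling by RLE factors, DESeq2, limma-voom and the other filters left each member on the same side of the adjusted p and in the same direction, but without the filter on low counts 2 members were called lower, since Tuba1b was at -0.57.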

Other observations

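Markers of brain regions, which the hemispheres share, differed between libraries of the same age. Hoxb5, a gene of the caudal hindbrain and spinal cord, was 0.58 to 6.17 CPM at 6m and 0.276 to 4.40 CPM at 24m, and was highest in 6m replicate 4 and in 24m replicate 1. The highest Prph of each age, 32.5 and 15.7 CPM, was in the same 2 libraries. Pcp2, a gene of cerebellar Purkinje cells, measured 336.0, 197.7, 162.4 and 249.3 CPM at 6m and 273.7, 154.2, 126.9 and 98.6 CPM at 24m, with the ages overlapping. These genes were picked after their values were seen, and how far the region content of a library bears on the neurofilament and tubulin values was not tested.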
